A study of Mus musculus with 20 samples.

Results

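The genes described here are 38 members of the NRF2 antioxidant and glutathione transferase programme, picked by symbol from the 40322 distinct gene symbols of the count table. They comprise the transcription factor gene Nfe2l2 and its repressor Keap1, classic NRF2 targets, genes of glutathione synthesis, cytosolic and membrane glutathione S-transferases, pentose phosphate pathway enzymes, and other detoxification enzymes and exporters. The list was proposed with the liver values of VAT removal against sham surgery known, in which Gsta1, Gsta2, Gstm1 and Aox1 were lower after VAT removal. Member values in that comparison are therefore given as a description, and their counts support nothing about the list.

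Liver and subcutaneous white adipose tissue (SAT) came from male mice of the C57BL/6J strain, and their RNA was sequenced. The mice ate regular chow until surgery at 8 to 9 months of age and a high-fat diet after it, for a time not given. In the VATR group the epididymal fat pads, a visceral adipose tissue (VAT) depot, were taken out, and in the sham group the abdomen was opened with the pads left in place. Each of the 4 groups (VATR liver, sham liver, VATR SAT and sham SAT) had 5 libraries of whole tissue with the labels naming no engineered allele. The data address whether the transcript levels of these genes differ in liver and in SAT between mice without the epididymal pads and mice that kept them.

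NRF2, the product of Nfe2l2, is held in the cytoplasm and marked for degradation by KEAP1, which carries reactive cysteines. Oxidants and electrophiles modify these cysteines, NRF2 then accumulates, pairs with small MAF proteins and binds antioxidant response elements in front of its targets. Many of those targets make or use glutathione: the glutamate-cysteine ligase subunits build it, glutathione reductase recycles it with NADPH, and the glutathione S-transferases (GSTs) attach it to reactive compounds, which exporters of the ABCC family then carry out of the cell. The liver is the main organ of this chemistry, and several mouse GST genes are among its abundant transcripts.

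Antioxidant response elements were looked for as the core TGACNNNGC on either strand, in RefSeq windows of GRCm38.p6 that ran from 250 bases before to 50 bases after each gene's start. Of the 38 members, 33 had a window, and 12 of these (36.4%) held the core, against 13.99% of all 27025 genes with a window. The core followed by an A was in 3 members (Gsta3, Pgd and Txnrd1; 9.1%) and in 3.45% of all genes. A match is a run of letters and not a shown binding site, and Hmox1, Gsta4, Abcc3, Gsr and Gclc had no window. The 6 stretches printed here are those matches for which 16 bases on either side also fall inside the window, before the start and outside annotated exons, so that the core in front of targets with very different liver values can be read. The match of Nfe2l2, at the far edge of its window, and a second one of Abcc4, next to another start, do not meet this and are not shown. Nor are those of Srxn1 and Pgd, which lie after the start. The stretches of Gstm7, Mgst1, G6pdx and a second match of Ugdh touch annotated exons and are also left out. Each is turned so that the core, in capitals, reads from 5′ to 3′. The stretch of Prdx1 is chr4:116685450-116685490 on the minus strand, that of Ugdh is chr5:65435950-65435990 on the minus strand, and that of Gclm is chr3:122245407-122245447 on the minus strand. Those of Gsta3 at chr1:21240448-21240488 and Abcc4 at chr14:118706220-118706260 are on the plus strand, and that of Txnrd1, at chr10:82859098-82859138 on the minus strand, lies in an annotated intron before an internal start.
Prdx1: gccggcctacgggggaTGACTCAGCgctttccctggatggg
Ugdh: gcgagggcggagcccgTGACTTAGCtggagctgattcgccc
Gclm: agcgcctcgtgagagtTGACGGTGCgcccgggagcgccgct
Gsta3: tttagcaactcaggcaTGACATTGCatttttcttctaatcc
Txnrd1: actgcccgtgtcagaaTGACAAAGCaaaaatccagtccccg
Abcc4: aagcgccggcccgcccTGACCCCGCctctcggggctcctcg
The search fixed all but the 3 free bases of each core, and the Prdx1 and Ugdh cores differ only in the middle one of these (C against T). In Gsta3 and Txnrd1 the core is followed by an A, which makes both a match to the longer form.

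Libraries held 20307159 to 43618452 counts. Nothing in the labels says that the 5 libraries of a group came from separate mice, so p-values measure the spread between libraries, and whether equal numbers in liver and SAT mark 1 mouse is not given. Tissue markers matched the labels: the 6 hepatocyte genes summed to 49798 to 66399 CPM in VATR livers and 51464 to 69132 CPM in sham livers, against 10.9 to 35.1 CPM in SAT (CPM, counts scaled to library size, with TMM factors within each tissue). The 6 adipocyte genes summed to 12958 to 17782 CPM in VATR SAT and 9033 to 19097 CPM in sham SAT, against 26.4 to 122 CPM in liver. Sham SAT libraries 3 and 4 stood apart, with 670 and 683 CPM over 10 lymph node genes against 10.9 to 16.4 CPM in the other 8 SAT libraries, and with the lowest adipocyte sums, 10090 and 9033 CPM. VATR SAT library 2 held 23763 CPM over 6 skeletal muscle genes. Sham SAT library 2 held 1952 CPM of them, VATR SAT libraries 1 and 3 held 998 and 255 CPM, and the remaining SAT libraries 14.2 to 51.1 CPM. Sham liver library 5 held 1139 CPM over 7 interferon-response genes, library 2 held 284 CPM, and the other 8 livers 96.4 to 151 CPM. In whole tissue, fewer cells of a type and less RNA per cell cannot be told apart.

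Within the liver, levels per kilobase of exon were led by the peroxide-splitting enzyme Cat (930 CPM per kb in VATR livers, 1090 in sham livers), by Gstm1 (907 and 1513) and by the membrane-bound Mgst1 (669 and 815). Gsta3 followed at 202 CPM per kb in VATR livers and 239 in sham livers. Gstm1 was second to Cat in VATR livers and ahead of it in sham livers. Slc7a11, the cystine importer, and Gpx2, a glutathione peroxidase best known from the gut, were the lowest, at 0.0226 and 0.0252 CPM per kb in VATR livers and 0.0634 and 0.113 in sham livers. In SAT the order began with Cat (304 CPM per kb in VATR SAT, 285 in sham SAT), Mgst1 (134 and 131) and Gstm1 (125 and 109). The pentose phosphate genes Taldo1 (96.7 in VATR SAT, 98.9 in sham SAT) and G6pdx (71.5 and 54.2) came next, and G6pdx was among the 4 lowest members in liver at 3.77 CPM per kb in VATR livers and 3.69 in sham livers. Gsta1, Gsta2 and Gpx2 were near 0 in SAT.

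In liver, 37 of the 38 members passed the filter on low counts and Gpx2 did not. Lower fitted levels in VATR livers were seen for 34 of the 37, and higher ones for Hmox1, G6pdx and Abcc4, while 47.8% of all 17078 genes tested were lower and 52.2% higher. The median log2 difference, VATR minus sham, was -0.28 over the members and 0.01 over all genes. edgeR's quasi-likelihood test with Benjamini-Hochberg adjustment called no member and no other gene, 18 members were lower at an unadjusted p under 0.05 (5.22% of all genes were), and no member was higher (4.68% of all genes were). DESeq2 called 9 members lower, Txnrd1, Ugdh, Gsr, Gclc, Ephx1, Gsta2, Gstp1, Aox1 and Gsta1, where it called 0.785% of all genes lower and 0.521% higher. The groups of libraries did not overlap for 7 members, all lower, where this held for 1.5% of all genes in that direction and 0.937% in the other. Txnrd1, Gsr, Gclc, Ephx1 and Aox1 were called by DESeq2 with any 1 liver library left out, whereas without VATR liver 1 or VATR liver 4 they were the only 5 called. Since this comparison chose the list, nothing is read from these counts. Between the same livers, the log2 differences of 8 growth-hormone-dependent sex-biased liver genes, outside the list, lay on both sides of 0. These 8 genes were also chosen with earlier results of these data known. edgeR, which called no gene in liver, called none of them. DESeq2 called Cux2 and Cyp2b13 higher in VATR livers (adjusted p of 9.36e-05 and 0.00484 in DESeq2), where it called 0.521% of all genes higher. Mup20 averaged 419 CPM in VATR livers and 1900 CPM in sham livers without overlap. Cyp2d9, Elovl3 and Cyp7b1 were also at negative log2 differences, with overlap, and that of Cyp7b1 was -0.24 ± 0.38. Cux2 averaged 42.2 CPM in VATR livers and 1.12 CPM in sham livers without overlap. Cyp2b13, Cyp2b9 and Hsd3b5 were also at positive log2 differences, with overlap. That of Hsd3b5 came from VATR liver 3, at 47.8 CPM, with the other VATR livers at 0.032 to 0.315 CPM and sham livers at 0.143 to 1.23 CPM. VATR liver 3 also stood apart from the other VATR livers for Elovl3 (79.8 CPM against 3.38 to 5.09) and Cyp2b9 (18.6 CPM against 321 to 613). The list's summed level was 938 to 1910 CPM in VATR livers and 2203 to 2912 CPM in sham livers, most of it from Mup20 in sham livers, and its part in the member values was not tested.

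**Figure D1:**
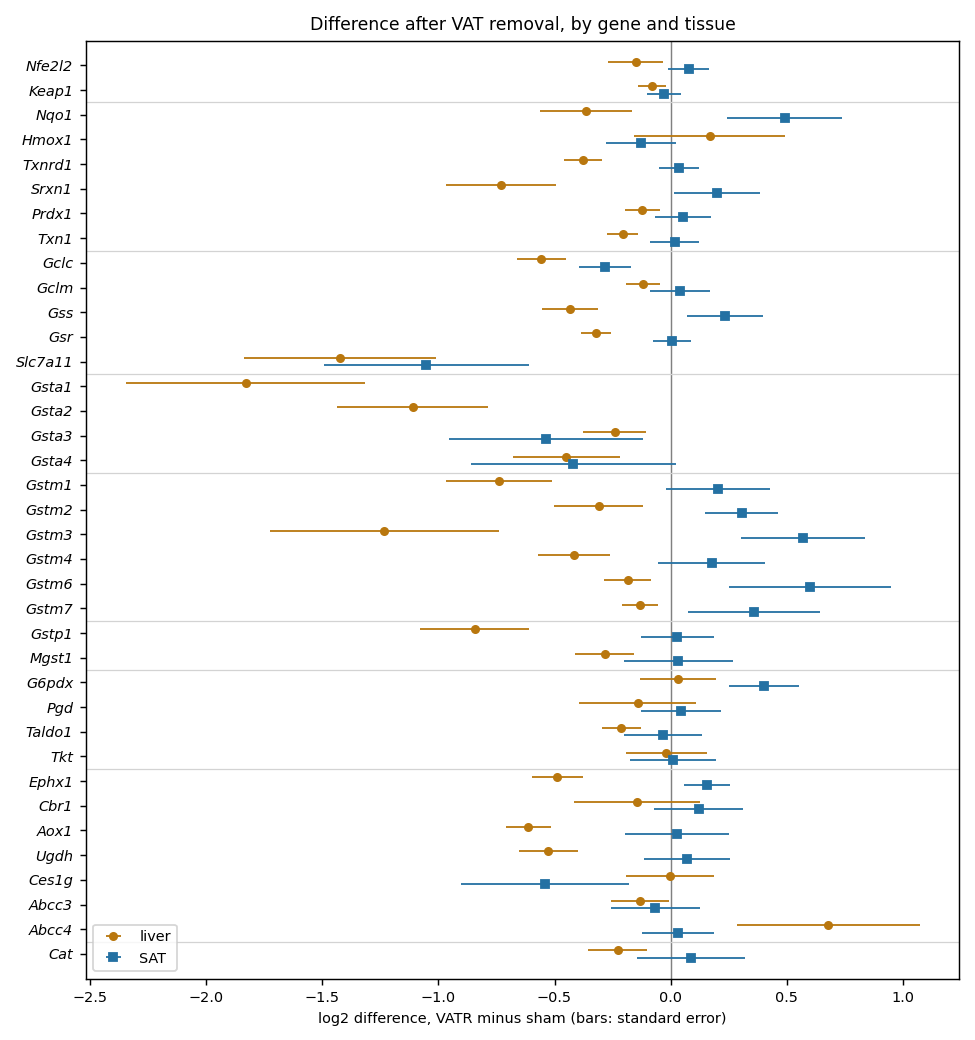
Log2 difference, VATR minus sham, of each member in liver (circles) and SAT (squares), with bars for the standard error from the fit, and members grouped by role from the regulators at the top to Cat at the bottom. In liver 34 of 37 members lie left of 0, with Gsta1 farthest at -1.83, and in SAT the mu class genes lie right of 0; Gsta1 and Gsta2 have no SAT value because they did not pass the filter on low counts.

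The regulators themselves had small differences. Nfe2l2 (chr2:75675513-75704641, minus strand) read 98.0, 98.3, 63.8, 96.0 and 95.8 CPM in VATR livers 1 to 5, against 103, 115, 96.5, 89.3 and 98.3 CPM in sham livers. Keap1 (chr9:21229730-21239361, minus strand) read 56.6, 56.3, 53.7, 52.1 and 55.3 CPM in VATR livers, against 52.9, 57.2, 63.9, 58.2 and 57.2 CPM in sham livers. The groups overlapped for both genes, and VATR liver 3 alone was far below the rest for Nfe2l2. Their log2 differences were -0.15 ± 0.12 and -0.08 ± 0.06 (SE of the fit, n = 5 libraries a group, as for all log2 differences printed with ± here).

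Among the classic targets, thioredoxin reductase Txnrd1 (chr10:82833951-82897712, plus strand) read 147, 136, 130.4, 124 and 149 CPM in VATR livers, against 176, 170.5, 177, 162 and 205 CPM in sham livers. The log2 difference was -0.38 ± 0.08, and the highest VATR liver stayed below the lowest sham liver. Sulfiredoxin Srxn1, which repairs overoxidised peroxiredoxins, averaged 53.2 ± 17.3 CPM in VATR livers and 88.5 ± 22.8 CPM in sham livers (SD, n = 5 each), with overlap. The log2 differences were -0.12 ± 0.08 for peroxiredoxin Prdx1 and -0.21 ± 0.07 for thioredoxin Txn1. The quinone reductase Nqo1, a standard readout of NRF2, had a log2 difference of -0.36 ± 0.20. Heme oxygenase Hmox1 went the other way, at 33.2 ± 18.9 CPM in VATR livers and 29.6 ± 5.87 CPM in sham livers. Its sign rested on VATR liver 1, at 64.9 CPM, without which the log2 difference was -0.23 in place of 0.17. That library also had the highest sums of 5 Kupffer cell genes, 517 CPM against 101 to 258 CPM in the other 9 livers, and of 5 macrophage genes, 419 CPM against 132 to 291 CPM, and their part in the Hmox1 value was not tested.

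All 5 genes of glutathione synthesis and recycling had lower values in VATR livers. Gclc (chr9:77754535-77794485, plus strand), the catalytic subunit of the rate-limiting ligase, read 359.8, 377, 322, 307 and 355 CPM in VATR livers, against 564, 417, 554, 544 and 455 CPM in sham livers. Gsr (chr8:33652523-33698163, plus strand), glutathione reductase, read 75.5, 74.1, 73.2, 73.4 and 77.7 CPM in VATR livers, against 87.2, 90.6, 91.3, 91.1 and 107 CPM in sham livers. Neither gene's groups overlapped, and the 5 VATR values of Gsr were very close to each other. The log2 differences were -0.56 ± 0.11 for Gclc and -0.32 ± 0.07 for Gsr. Glutathione synthetase Gss (chr2:155563181-155592810, minus strand) read 61.1, 76.4, 50.5, 58.0 and 67.2 CPM in VATR livers, against 79.8, 73.7, 105, 84.8 and 79.2 CPM in sham livers. Only VATR liver 2 reached into the sham range, above sham liver 2. Gclm, the modifier subunit that pairs with Gclc, averaged 166 ± 6.39 CPM in VATR livers and 179.9 ± 15.7 CPM in sham livers (log2 difference -0.12 ± 0.07). The cystine importer Slc7a11 read 0.192, 0.516, 0.202, 0.115 and 0.551 CPM in VATR livers, against 0.633, 1.12, 0.780, 0.694 and 1.19 CPM in sham livers. These groups did not overlap, but they rest on 3 to 21 counts a library in VATR livers and 18 to 41 in sham livers.

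**Figure D2:**
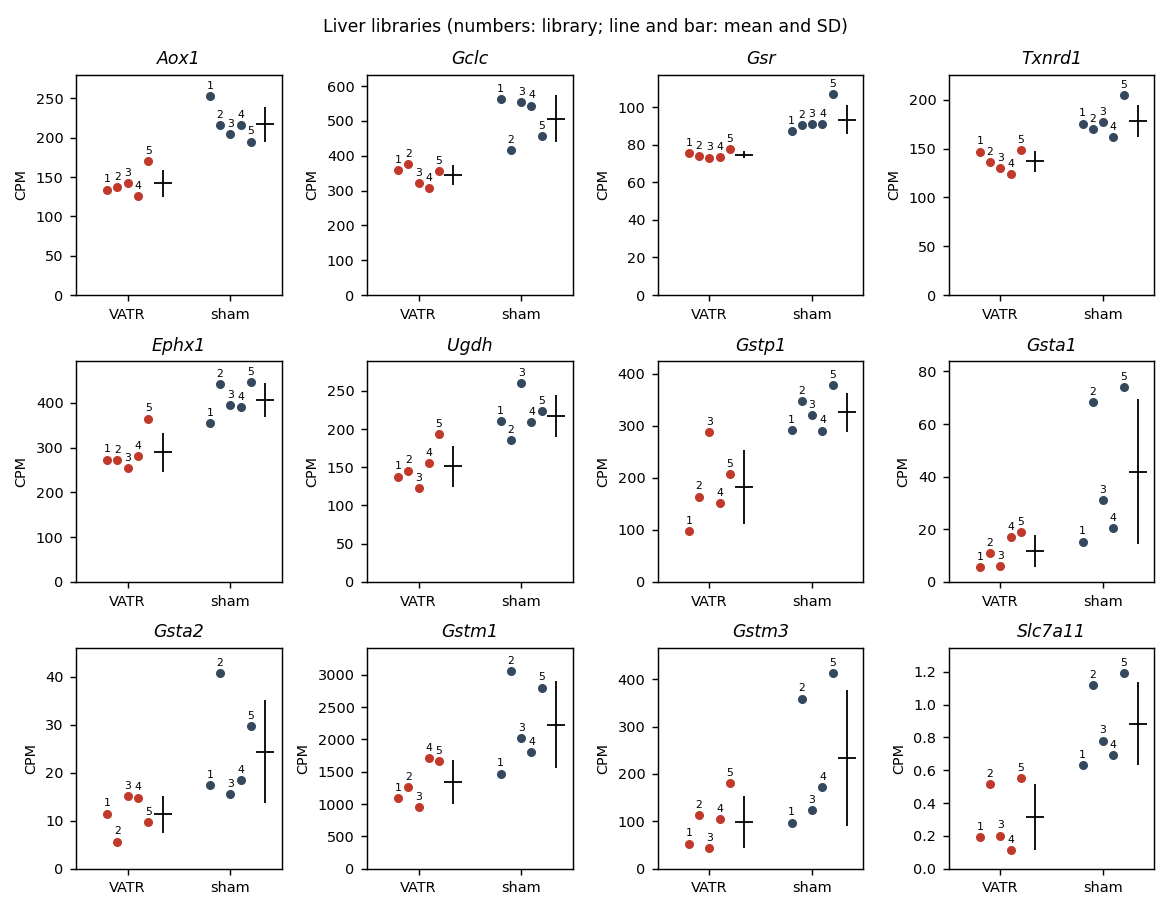
CPM of 12 members in each VATR liver (left, red) and sham liver (right, dark) library, numbered 1 to 5, on axes that start at 0, with the group mean and SD as a line and bar beside the points. Aox1, Gclc, Gsr, Txnrd1, Gstp1, Gsta2 and Slc7a11 show no overlap of the groups, while in Gsta1, Gstm1 and Gstm3 sham libraries 2 and 5 stand above the other 3 sham libraries.

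The 12 GST genes in the list were lower in VATR livers without exception, by very different amounts. Gsta1 (chr9:78230656-78242684, plus strand), an alpha class GST known for strong induction by NRF2 activators in mouse liver, read 5.69, 11.0, 6.05, 17.1 and 18.9 CPM in VATR livers, against 15.3, 68.4, 31.2, 20.5 and 74.2 CPM in sham livers. The nearby Gsta2 (chr9:78331018-78355788, minus strand) read 11.5, 5.68, 15.1, 14.8 and 9.73 CPM in VATR livers, against 17.4, 40.8, 15.5, 18.6 and 29.7 CPM in sham livers. For both genes sham livers 2 and 5 were far above the other 3, and VATR livers 4 and 5 overlapped sham liver 1 for Gsta1. The log2 differences were -1.83 ± 0.52 for Gsta1 and -1.11 ± 0.33 for Gsta2. The transcripts of these genes share 44.6% of Gsta1's and 44.8% of Gsta2's 50-base words, so the split of reads between them is uncertain. Summed, they read 17.2, 16.6, 21.1, 31.9 and 28.6 CPM in VATR livers, against 32.8, 109, 46.7, 39.1 and 104 CPM in sham livers, with no overlap. Gsta3, the abundant alpha class GST that detoxifies aflatoxin epoxide in mice, averaged 879 ± 128 CPM in VATR livers and 1038 ± 157 CPM in sham livers (log2 difference -0.24 ± 0.14). Gsta4, which conjugates the lipid peroxidation product 4-hydroxynonenal, differed by -0.45 ± 0.23 with overlap.

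The 6 mu class genes lie side by side on chromosome 3 and ranged from -1.23 ± 0.49 for Gstm3 to -0.13 ± 0.08 for Gstm7. Gstm3 (chr3:107963696-107969283, minus strand) read 52.9, 114, 44.1, 104 and 180.2 CPM in VATR livers, against 97.3, 359, 123, 173 and 412 CPM in sham livers. Gstm1 (chr3:108012255-108017973, minus strand) read 1093, 1264, 949, 1707 and 1667 CPM in VATR livers, against 1472, 3051, 2015, 1803 and 2799.8 CPM in sham livers. In both genes VATR livers 1 and 3 were the lowest, sham livers 2 and 5 the highest, and the groups overlapped. Gstm1 and Gstm3 share 10.0% and 9.8% of their 50-base words. Gstp1 (chr19:4035407-4037985, minus strand), the pi class GST, read 97.2, 164, 287, 152 and 207 CPM in VATR livers, against 292, 347, 320.5, 291 and 378 CPM in sham livers. The groups did not overlap, although VATR liver 3 came just below the lowest sham liver. It shares 62.3% of its words with Gstp2, which is outside the list and read -0.86 ± 0.25 on the log2 scale. Mgst1 averaged 1348 ± 208 CPM in VATR livers and 1641 ± 193 CPM in sham livers.

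Of the other detoxification genes, aldehyde oxidase Aox1 (chr1:58029931-58106413, plus strand) read 134, 137, 142, 126 and 170.2 CPM in VATR livers, against 253, 216, 204, 216 and 195 CPM in sham livers. Microsomal epoxide hydrolase Ephx1 (chr1:180976210-181020904, minus strand) read 273, 273, 255, 281 and 365 CPM in VATR livers, against 355, 442, 394, 391 and 446 CPM in sham livers. Ugdh (chr5:65413221-65435949, minus strand), which makes the UDP-glucuronate used in glucuronidation, read 138, 146, 123, 156 and 193 CPM in VATR livers, against 209.9, 185, 260.2, 209 and 223 CPM in sham livers. Aox1 showed no overlap, and in Ephx1 and Ugdh only VATR liver 5 reached into the sham range. Their log2 differences were -0.61 ± 0.10, -0.49 ± 0.11 and -0.53 ± 0.13. The carboxylesterase Ces1g was level at 232 ± 58.6 CPM in VATR livers and 233 ± 44.4 CPM in sham livers. The exporter Abcc4, which is raised in cholestasis as a basolateral efflux pump, averaged 19.1 ± 6.89 CPM in VATR livers and 11.9 ± 6.64 CPM in sham livers (log2 difference 0.68 ± 0.39, with overlap). The related exporter Abcc3 read -0.13 ± 0.12 and the carbonyl reductase Cbr1 -0.14 ± 0.27. Of the pentose phosphate genes, G6pdx and Pgd encode the steps that make NADPH and Taldo1 and Tkt the sugar-exchanging steps after them. The log2 differences of these 4 lay between -0.21 and 0.03, all with overlap, and Cat read -0.23 ± 0.13.

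The members did not share 1 order of libraries. VATR liver 3 was the lowest VATR liver for 18 of 37 members (48.6%, against 25.9% of all genes), and VATR liver 5 the highest for 15 (40.5%, against 15.1%). Among sham livers, 2 and 5 were the 2 highest for 13 members (35.1%, against 19.2% of all genes), namely Nqo1, Hmox1, Slc7a11, G6pdx, Gsta1, Gsta2, Gsta4, Gstm1, Gstm3, Gstp1, Abcc4, Ephx1 and Cbr1. These are also the sham livers with the highest sums of the interferon-response genes, and the part of that difference was not tested. Without both libraries, a choice made after their values were seen, 33 of 37 members were still lower in VATR livers and the median was -0.27. The log2 difference was then -0.92 for Gsta1, -0.60 for Gsta2, -0.40 for Gstm3, -0.40 for Gstm1 and -0.17 for Gsta4, while Aox1 was at -0.66 and Gclc at -0.69. Cbr1 turned to 0.32 and Abcc4 stood at 1.33.

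**Figure D3:**
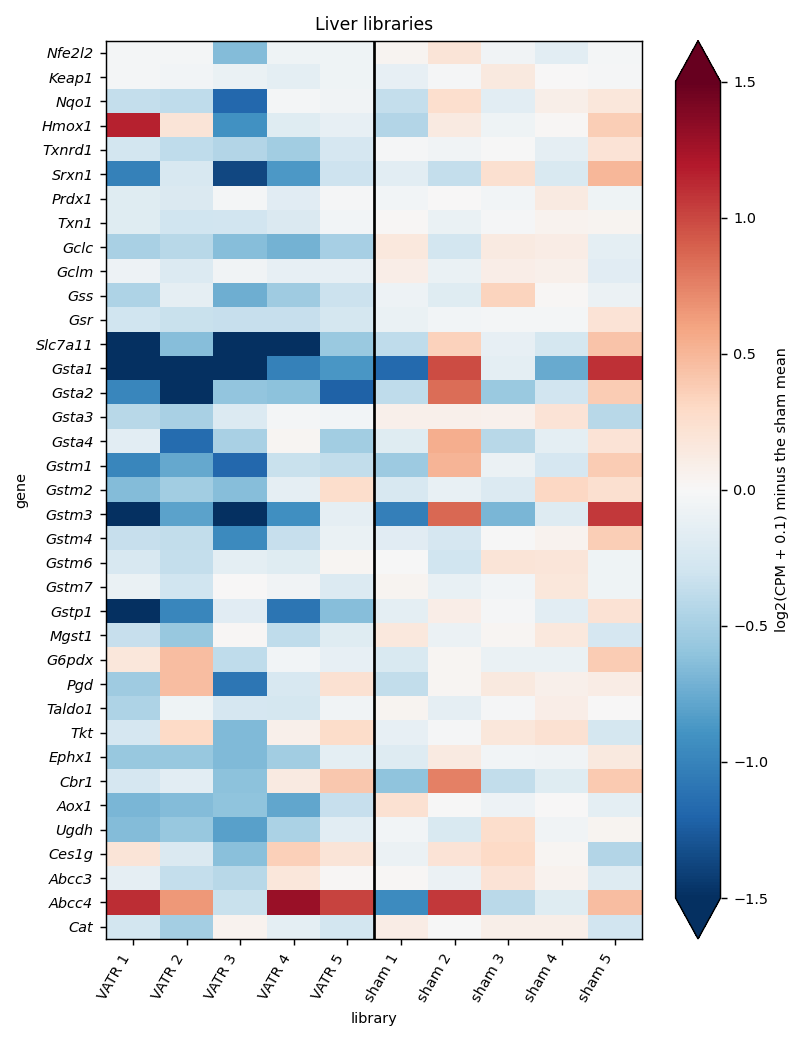
Level of each of 37 members in each liver library, as log2(CPM + 0.1) minus the mean of the sham livers, with the 5 VATR libraries left of the black line, the 5 sham libraries right of it, and colours limited to 1.5 on either side. Most VATR cells are blue, and Gsta1 and Gstm3 are red in sham livers 2 and 5. Hmox1 is most red in VATR liver 1, and Abcc4 is red in VATR livers 1, 2, 4 and 5.

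The rest of the pathway was set beside the members with a list of 80 other NRF2 regulators and targets and glutathione, thioredoxin and NADPH genes. This list too was chosen with earlier results of these data known. Its counts in liver and SAT are therefore a description, and nothing is read from them. In liver 77 passed the filter, 42 were lower and 35 higher in VATR livers, and the median log2 difference was -0.02. edgeR called none of them in liver or in SAT, and DESeq2 called Entpd5, Esd and Gstp2 lower in liver, 3 of 77 where it called 0.785% of all genes lower. Entpd5, a nucleoside diphosphatase of the endoplasmic reticulum, averaged 339 CPM in VATR livers and 471 CPM in sham livers (-0.48 ± 0.11). S-formylglutathione hydrolase Esd averaged 116 CPM in VATR livers and 141 CPM in sham livers (-0.28 ± 0.07), and the biliverdin reductase Blvrb read -0.34 ± 0.09. Entpd5, Esd and Blvrb showed no overlap, nor did Txnl1 and Prdx5, which makes 5 of 77 against 1.5% of all genes in this direction. Gstp3 stood at 0.36 ± 0.13, with overlap.

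In SAT no member differed by the tests, and the direction of most depended on sham libraries 3 and 4. Of the 38 members 35 passed the filter, without Gsta1, Gsta2 and Gpx2. edgeR and DESeq2 called none of them, and edgeR called no gene at all in SAT, where DESeq2 called 0.275% of all genes higher and 0.572% lower. At an unadjusted p under 0.05 in edgeR, G6pdx was higher (4.38% of all 18530 genes were) and Slc7a11 and Gclc were lower (6.27% of all genes were). Fitted levels were higher in VATR SAT for 26 of 35 members, against 49.7% of all genes (50.3% were lower), with a median log2 difference of 0.04. Sham SAT 3 or 4 was the lowest sham library for 32 of the 35 members, against 43.4% of all genes. Without these 2 libraries 25 of 35 members were lower in VATR SAT, against 47.6% of all genes, and the median of the members was -0.12. Since these libraries also carry the lymph node genes and the low adipocyte sums, their adipose share and the level within adipose cells cannot be told apart.

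G6pdx (chrX:74409483-74429194, minus strand), glucose-6-phosphate dehydrogenase and the entry enzyme of the NADPH-making pentose phosphate pathway, read 218, 219.8, 232, 226 and 207 CPM in VATR SAT, against 194, 197, 129, 119 and 195 CPM in sham SAT. All VATR libraries were above all sham libraries, which held for 0.831% of all genes in this direction and 0.61% in the other. The log2 difference was 0.40 ± 0.15, with an adjusted p of 0.431 in edgeR's quasi-likelihood test, and it was 0.17 without sham SAT 3 and 4. Slc7a11 (chr3:49892526-50443614, minus strand) read 4.78, 5.28, 4.56, 3.45 and 5.06 CPM in VATR SAT, against 5.99, 3.88, 18.4, 15.8 and 3.92 CPM in sham SAT. Here sham libraries 3 and 4 were high instead of low, and the log2 difference moved to 0.003 without them, against -1.05 ± 0.44 with them. Gclc read 24.6, 27.4, 28.8, 27.5 and 25.6 CPM in VATR SAT, against 25.9, 29.7, 39.3, 36.5 and 31.3 CPM in sham SAT. The same 2 sham libraries were the highest, and the log2 difference was -0.28 ± 0.11 with them and -0.12 without.

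Nfe2l2 read 68.2, 73.5, 66.4, 70.0 and 64.6 CPM in VATR SAT, against 71.1, 74.5, 57.5, 58.3 and 62.9 CPM in sham SAT. Keap1 read 46.6, 50.3, 50.8, 45.4 and 49.4 CPM in VATR SAT, against 53.1, 48.4, 46.4, 44.9 and 54.4 CPM in sham SAT. Both overlapped, with log2 differences of 0.08 ± 0.09 and -0.03 ± 0.07. Nqo1 read 3.82, 6.98, 2.71, 3.69 and 3.41 CPM in VATR SAT, against 3.26, 3.38, 2.33, 2.71 and 2.92 CPM in sham SAT. VATR SAT 2, the library with the highest sum of skeletal muscle genes, was far above the rest, and without it the log2 difference was 0.21 in place of 0.49. Srxn1 and Txnrd1 were also highest in that library, and the part of the muscle genes in these values was not tested.

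The 6 mu class genes were all higher in VATR SAT, by 0.18 ± 0.23 for Gstm4 to 0.60 ± 0.35 for Gstm6, the opposite of their sign in liver. Gstm3 read 3.11, 1.89, 2.35, 2.81 and 1.40 CPM in VATR SAT, against 1.39, 2.25, 1.21, 1.17 and 1.74 CPM in sham SAT. Gstm2 read 102, 81.5, 76.8, 97.5 and 84.9 CPM in VATR SAT, against 84.7, 85.6, 57.7, 50.3 and 79.6 CPM in sham SAT. Both overlapped, and for Gstm2 and Gstm3 sham libraries 3 and 4 were the lowest of all 10. Without those libraries Gstm1 was at -0.08 and Gstm4 at -0.04, and the other 4 remained above 0, between 0.03 for Gstm7 and 0.37 for Gstm6. The alpha class genes Gsta3 and Gsta4 were at -0.54 ± 0.42 and -0.42 ± 0.44, and without the same libraries Gsta4 was at -0.90 and Gsta3 lower still. Pathway genes outside the list were higher in VATR SAT in 53 of 76 cases, against 49.7% of all genes, and in 19 of 76 without sham SAT 3 and 4, against 52.4% of all genes. The smallest unadjusted p among them were those of Abcc2 (0.91 ± 0.28, 0.973 to 2.28 CPM in VATR SAT and 0.788 to 1.28 CPM in sham SAT), Abcc5 (0.26 ± 0.08) and Gstp3 (-2.82 ± 0.99), and Gstp3 read 5.12 and 4.70 CPM in sham SAT 3 and 4 and under 0.67 CPM in the other 8.

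**Figure D4:**
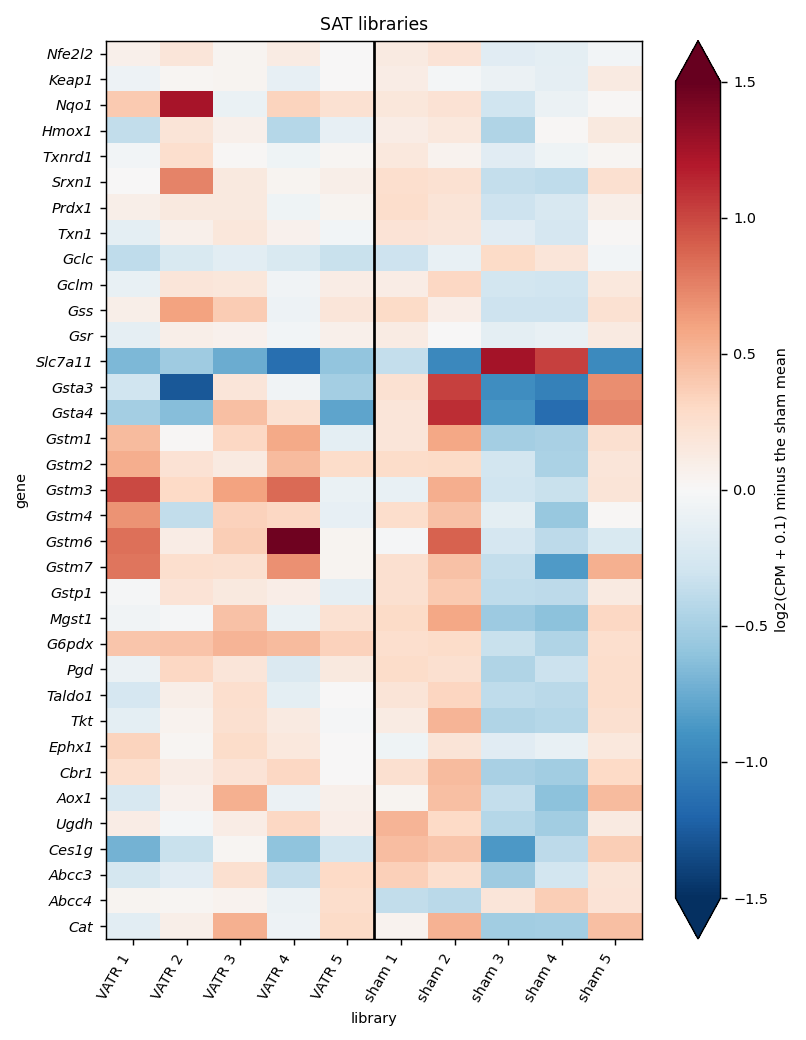
Level of each of 35 members in each SAT library, as log2(CPM + 0.1) minus the mean of the sham SAT libraries, with the 5 VATR libraries left of the black line, the 5 sham libraries right of it, and colours limited to 1.5 on either side. Sham libraries 3 and 4 are blue for nearly every member and red for Slc7a11, Gclc and Abcc4, and G6pdx is red in all 5 VATR libraries.

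The liver and SAT responses were compared by testing their difference, liver minus SAT, over all 20 libraries, with the reservation that the liver side was known when the list was made. edgeR called no gene and no member. At an unadjusted p under 0.05, 13 members were lower in liver than in SAT by this difference (3.61% of all 19954 genes were) and none was higher (6.51% of all genes were). Ephx1 was the member DESeq2 called, where it called 0.155% of all genes lower and 0.466% higher, and its difference was -0.64 ± 0.16, with an adjusted p of 0.288 in edgeR's quasi-likelihood test. In SAT it read 78.6, 63.4, 75.2, 69.4 and 62.4 CPM after VATR, against 59.5, 71.2, 55.1, 57.7 and 69.3 CPM after sham surgery, with overlap. The differences of the mu class included -1.78 ± 0.60 for Gstm3 and -0.93 ± 0.35 for Gstm1, and that of Gstp1 was -0.87 ± 0.30. Gsta1 and Gsta2, nearly absent from SAT, are left out of the count that follows. Of the 35 members that passed the filter in both tissues 31 were negative, with a median of -0.32, where 46% of all genes were negative and 54% positive. Without sham SAT 3 and 4, 21 of the 35 were negative, against 46.8% of all genes tested in both tissues, and the median of the members was -0.12.

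The level in liver was set against SAT within the sham libraries, where both tissues were scaled in 1 fit. edgeR called 34 of 37 members, 30 higher and 4 lower in liver, where it called 29.7% of all 18449 genes higher and 35.3% lower. The libraries did not overlap for 30 members higher in liver (25.8% of all genes) and 3 lower (28.3%). Both counts of 30 include Gsta1 and Gsta2, which did not pass the filter on low counts in SAT and entered this fit through their liver counts. Gsta1 led the members higher in liver: with 50.8 CPM in sham livers and no count in any sham SAT library, it was at least 3363-fold higher in sham livers, against a floor of 3 counts over the 5 sham SAT libraries. VATR SAT held 2 counts of Gsta1 over its 5 libraries. Ces1g came next among the members with counts in both tissues, at 284 ± 55.3 CPM in sham livers and 0.422 ± 0.183 CPM in sham SAT (SD, n = 5 each; log2 difference 9.38 ± 0.32, adjusted p = 1.1e-09 in edgeR). Gsta2 followed at 8.29 ± 0.76, Gstm3 at 7.75 ± 0.52, Gsta3 at 5.59 ± 0.45, and Gstm6 at 5.52 ± 0.27. Gclc averaged 618 ± 85.9 CPM in sham livers and 27.4 ± 4.34 CPM in sham SAT. The 18 counts of Gsta2 in sham SAT were all in libraries 3 and 4, so its value rests on them.

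Members higher in SAT were G6pdx at 13.8 ± 2.27 CPM in sham livers and 140.4 ± 33.6 CPM in sham SAT (-3.34 ± 0.19), the cystine importer Slc7a11 (-2.89 ± 0.49), Pgd (-1.38 ± 0.18) and Taldo1 (-0.53 ± 0.16). G6pdx, Pgd and Taldo1 are 3 of the 4 pentose phosphate members. Without sham SAT 3 and 4 the difference of Slc7a11 was -1.86. Taldo1 was not called without sham SAT 1, 2 or 5. Hmox1, Tkt and Abcc4 were not called. The outcome for the members with small differences depended on how the tissues were scaled. With total counts in place of TMM factors all genes moved by -0.59 on the log2 scale at the median, 27 members were called higher and 7 lower, and 22.9% of all calls were higher in liver, against 45.7% with TMM. Keap1, Gstm2 and Aox1 were then not called, and Hmox1, Tkt and Abcc4 were called lower. The largest differences, such as those of Ces1g (8.81) and G6pdx (-3.90), kept their call and sign. With VATR libraries in place of sham 32 members were called, without Gstm2 and Aox1.

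**Figure D5:**
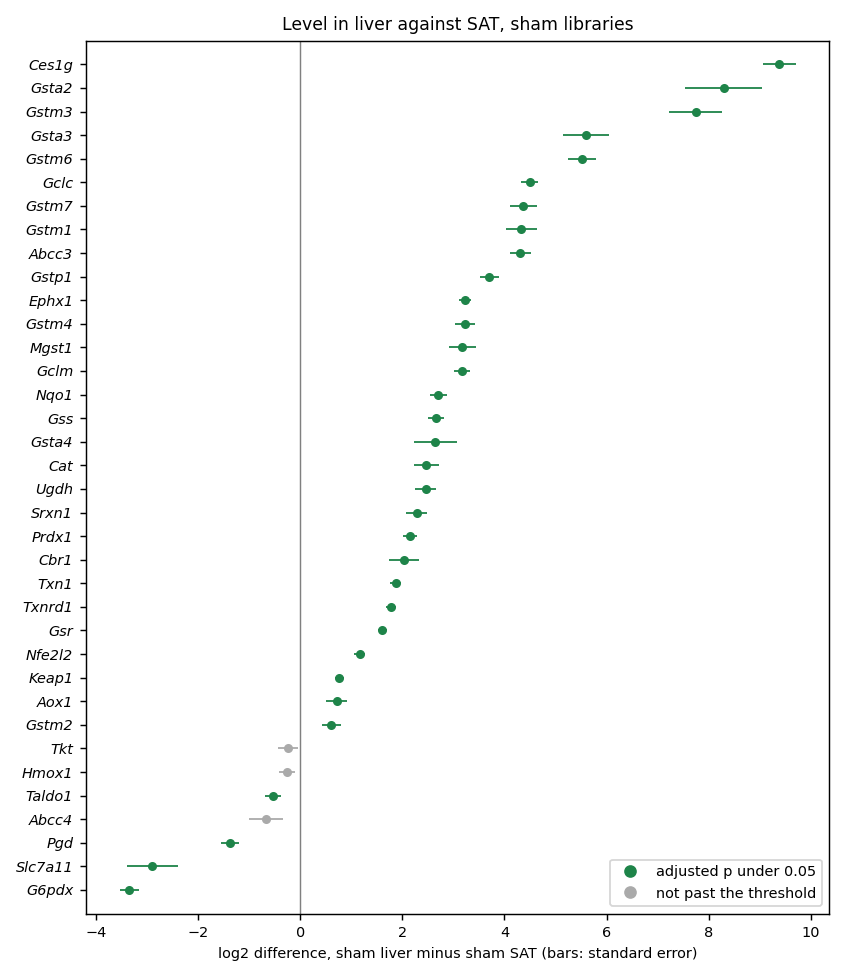
Log2 difference, sham liver minus sham SAT, of 36 members with bars for the standard error, ordered by size, in green where edgeR's adjusted p was under 0.05 and grey otherwise; Gsta1, with no counts in sham SAT, is left out. Values run from 9.38 for Ces1g to -3.34 for G6pdx, and Tkt, Hmox1 and Abcc4 are grey.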

How the data were processed

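Total RNA was depleted of ribosomal RNA, per the labels' protocols. STAR 2.5.1a, featureCounts 1.46 of Subread, bcl2fastq and the GRCm38 build are named per the submitters' processing notes. Not given in the sources used here are the annotation, the strand setting and the treatment of reads with several hits. The deposited table of the authors gives a whole-number count for each gene symbol and library, whose totals differ between libraries as raw counts do, and its columns were matched to samples by the labels' descriptions. Exact repeats of an entry, such as a second Gpx2, were dropped, and an all-0 second entry of Gstp1 was kept apart.

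Groups came from the sample titles. Liver, SAT, sham liver against sham SAT, and the difference of responses were each fitted in edgeR 4.0.16 (R 4.3.3) with filterByExpr, TMM and a robust quasi-likelihood F-test. Genes were called at a Benjamini-Hochberg adjusted p under 0.05 over all genes tested. Standard errors come from the F statistic. CPM are scaled within a tissue, or in the joint fit where the tissues are compared. The scripts were tested on simulated counts. Alternatives used DESeq2 1.42.0, limma 3.58.1, other scalings and filters, a library-number block (with surgery in the difference), and each library left out. Exon lengths and positions came from GENCODE M21 on GRCm38, and promoters from RefSeq on GRCm38.p6.

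The members, the other pathway genes and the marker lists were chosen with earlier results of these data known. Library values are printed for the 10 members with the smallest unadjusted p in liver, the 6 in SAT, Nfe2l2, Keap1 and members called in the difference of responses. Members without overlap are named. Gsta2, Gstm1 and Gstm3 in liver fall outside this rule. They and the libraries singled out in the text were chosen after their values were seen.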

Additional observations from a re-analysis of the deposited data

Results flagged for a closer look

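Of 144 sets of 5 libraries (1 member in 1 group), 10 held a library whose gap to its nearest neighbour exceeded Dixon's 95% critical value, 6 at the high end and 4 at the low end, where chance flags about 1 in 20 sets. Of these, 3 were in VATR SAT library 2, which also held 23763 CPM of skeletal muscle genes: Srxn1 at 43.0 CPM with the next library at 28.3 CPM, Nqo1 at 6.98 CPM with the next at 3.82 CPM, and Txnrd1 at 88.8 CPM with the next at 76.1 CPM. In VATR livers, Nfe2l2 was low in library 3 at 63.8 CPM with the next at 95.8 CPM, and Ephx1 was high in library 5 at 365 CPM with the next at 281 CPM. In sham livers, library 5 was high for Gsr at 107 CPM with the next at 91.3 CPM and low for Gsta3 at 768 CPM with the next at 1074 CPM. Sham liver 1 was low for Pgd at 69.2 CPM with the next at 91.6 CPM. In sham SAT, Hmox1 was low in library 3 at 37.1 CPM with the next at 51.4 CPM, and Gstm6 was high in library 2 at 3.63 CPM with the next at 1.90 CPM.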

How the results depend on the processing

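Calls of VATR against sham depended on the tool. In liver edgeR called 0 genes, DESeq2 223 and 9 members, edgeR with no filter 3, with 1 CPM in 5 libraries 3, limma-voom 3, and the fit of all 20 libraries 27, none of the last 4 with a member. In SAT edgeR called 0 genes and DESeq2 157, with 0 members in either. For the difference of responses edgeR called 0 genes and DESeq2 124, with 1 member. With each library left out in turn, edgeR called 0 to 53 genes in liver (53 without VATR liver 3), 0 to 1 in SAT and 0 to 3 in the difference, with 0 members throughout, and 11538 to 11922 genes and 33 to 35 members between sham tissues. The member counts by sign ran from 31 to 35 lower of 37 in liver and from 7 to 21 lower of 35 in SAT, the last without sham SAT 3.

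The labels give the groups the same library numbers, but same-numbered libraries did not deviate together in every pair: their correlations were -0.067 to 0.191 in liver, -0.262 to 0.362 in SAT and -0.168 to 0.097 between sham tissues. In liver each library correlated best with its own number in 4 of 5 cases, in SAT in 2 of 5 and between sham tissues in 0 of 5, whereas VATR liver and VATR SAT gave 5 of 5 at 0.037 to 0.099. With the number as a block edgeR called 0 genes in liver, 0 in SAT and 10985 between sham tissues, with 0, 0 and 34 members. In the difference, with surgery and number together as the block, it called 0 genes and 0 members.

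Depth limits members near 0 CPM (Slc7a11 and Gpx2 in liver, Gsta1, Gsta2, Gpx2 and Ces1g in SAT). Counts of Gsta1 and Gsta2, and of Gstp1 and Gstp2, are uncertain because the pairs share sequence.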
